A study of Mus musculus with 30 samples.

Results

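The genes described here are 32 genes of the unfolded protein response and of protein folding in the endoplasmic reticulum (ER). They were taken as the array rows whose gene symbol is 1 of these 32 names; all 32 were found, on 37 rows, among 19938 genes with a row of their own. The series profiled CD8+ T cells on 30 arrays in 10 groups of 3. Pmel-1 is a transgene for a T cell receptor that sees gp100, a protein of melanocytes. TMem are memory-like cells made by differentiation in vitro, genotype Ly5.2 Pmel-1 Tg, and TN are naive cells, or cells derived from them, genotype Ly5.1 Pmel-1 Tg. The TMem groups were TMem alone at 0 h (no stimulation), TMem mix and TMem alone at 18 h, and TMem mix and TMem alone at 96 h. The TN groups were TN alone at 0 h, TN mix and TN alone at 18 h, and TN mix and TN alone at 96 h. Stimulation was with antibodies specific for CD3 and CD28 together with IL-2; in a mix culture both cell types were stimulated together, and cells were sorted by flow cytometry. All groups shared the C57BL/6 strain, the spleen as source, an age of 6 to 12 weeks and the label female. The repeats are given as biological ones, but how many mice stand behind an array is not given. TMem cells were not taken from an infected animal, so they stand for memory cells only as far as the in vitro protocol does.

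The ER folds the proteins that a cell secretes or places in its membranes. BiP (Hspa5) and its J protein partners hold unfolded chains, protein disulfide isomerases form disulfide bonds, calnexin and calreticulin bind sugar chains, and chains that fail are returned to the cytosol for degradation. When unfolded chains pile up, the sensors IRE1 (Ern1), PERK (Eif2ak3) and ATF6 start the unfolded protein response. IRE1 splices the mRNA of the transcription factor XBP1, PERK phosphorylates eIF2alpha and slows translation, and ATF6 is cut and moves to the nucleus. The arrays read transcript levels only, so splicing of Xbp1, phosphorylation and cleavage were not measured. Activated CD8+ T cells grow and make cytokines and cytotoxic granules, and part of this response is known to be switched on by T cell activation.

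XBP1 and ATF6 act through short promoter sequences, the best known of which is the ER stress response element (ERSE), CCAAT, then any 9 bases, then CCACG. The sites are shown because such elements define many targets of the response; RefSeq windows of GRCm38.p6, 250 bases before to 50 bases after a gene's start, were searched on both strands. Windows were given for 27 of the 32 genes; Atf6, Derl1, Hyou1, Manf and Ppp1r15b had none. The 10 ERSE matches of 9 genes read as follows, with the fixed ends in capitals and each in the direction of the motif.
Hspa5: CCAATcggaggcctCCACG
Hsp90b1, distal: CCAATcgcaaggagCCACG
Hsp90b1, proximal: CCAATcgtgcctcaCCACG
Calr: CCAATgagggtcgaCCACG
Canx: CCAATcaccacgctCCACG
Creld2: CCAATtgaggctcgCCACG
Derl3: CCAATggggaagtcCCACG
Dnajc3: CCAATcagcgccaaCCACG
Pdia6: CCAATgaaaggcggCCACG
Syvn1: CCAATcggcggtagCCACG
The Hspa5 match lies at chr2:34772025-34772043 (+ strand), the Pdia6 match at chr12:17266491-17266509 (+ strand) and the Derl3 match at chr10:75893242-75893260 (- strand), all upstream of the start. The 9 genes are 33.33% of the 27, against 39 of all 32544 windows in the table, or 0.1198%. The first share counts genes and the second counts windows. Among 99 other genes of the pathway with a window, 1 gene held the ERSE, so 9 of 27 members did against 1.01% of these genes. The members were chosen as genes of the response, many targets of which this element defines. A high share among them was therefore built into the choice, and these contrasts test nothing.

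The shorter ERSE-II, ATTGG, 1 base and CCACG, was found in the windows of Dnajb11 and Herpud1, and in 0.0369% of all windows.
Dnajb11: ATTGGcCCACG
Herpud1: ATTGGgCCACG
Sec24d held TGACGTGG, a core of the unfolded protein response element, 26 to 19 bases before its start; 0.6822% of all windows held it. Herpud1 also held TGATGCAA, a core of the element bound by ATF4 and its partners, which 0.8665% of windows held. The letters CCACG are part of the ERSE, of ERSE-II and, on the other strand, of TGACGTGG. With or without the rest, they occurred in a window of 22 of the 27 genes and in 32.99% of all windows. Members' windows had a median GC content of 65.83%, against 53% in all windows. These matches are descriptions of letters in a window and not sites of measured binding.

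The 250 bases upstream of Hspa5 and of Herpud1 are printed because these genes hold different elements. No link between an element and a gene's course was tested. The Hspa5 stretch is chr2:34771840-34772089 (+ strand), with the ERSE ends in capitals, and the Herpud1 stretch is chr8:94386179-94386428 (+ strand), with TGATGCAA (here on the other strand) and the ERSE-II ends in capitals.
Hspa5: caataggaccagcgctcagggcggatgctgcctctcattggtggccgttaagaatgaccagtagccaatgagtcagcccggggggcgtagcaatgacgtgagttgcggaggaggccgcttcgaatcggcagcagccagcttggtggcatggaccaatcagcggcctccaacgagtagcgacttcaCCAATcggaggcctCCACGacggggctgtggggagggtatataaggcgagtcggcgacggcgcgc
Herpud1: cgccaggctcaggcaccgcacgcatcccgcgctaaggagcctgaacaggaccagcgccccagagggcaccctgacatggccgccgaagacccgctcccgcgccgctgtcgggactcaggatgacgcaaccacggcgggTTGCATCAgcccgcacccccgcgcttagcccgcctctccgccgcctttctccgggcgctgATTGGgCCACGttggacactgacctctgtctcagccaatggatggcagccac

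Some groups stood apart in ways their labels do not give. Every TMem array read 8.82 or more on the log2 scale for the Y-linked gene Eif2s3y and 6.02 or less for Xist, the RNA that silences an X chromosome, although all samples are labelled female. TN alone arrays at 0 h and 96 h read 4.0 to 4.58 for Eif2s3y, whereas TN alone and TN mix arrays at 18 h and TN mix arrays at 96 h read 7.34 to 8.50. Xist was at 9.34 to 12.11 in all TN arrays, so the last 3 TN groups held both transcripts. Comparisons of TN at 18 h with 0 h, of TN at 96 h with 18 h, and of mixed with unmixed TN cells at 96 h, therefore also differ in Eif2s3y. The groups TN mix and TN alone at 18 h (8.36 and 8.14 on average), and TN alone at 96 h and 0 h (4.17 and 4.19), are alike in it. Every TMem array was above every TN array in Eif2s3y and below every TN array in Xist. All comparisons of TMem with TN cells at the same time therefore carry this difference too, and its part was not tested. Cd8a averaged 11.26 to 12.42 and Cd4 6.16 to 6.53 over the groups, and the plasma cell markers Jchain, Tnfrsf17 and Sdc1 averaged at most 7.09. As whole lists these markers were not flat. The 3 measured CD4 T cell genes averaged 7.80 to 7.94 in TN alone arrays at 96 h. They averaged 6.83 to 7.22 in TN mix at 96 h and 7.02 to 7.15 in TN alone at 0 h. The 5 measured plasma cell genes averaged 6.24 to 6.44 in TN alone at 0 h and 7.04 to 7.09 at 18 h. MHC class II genes were highest in TN alone at 96 h (Cd74 at 9.96 on average, against 8.13 in TN mix at 96 h). The 0 h groups were the least uniform (lowest correlation between replicates over all genes 0.984 in TMem and 0.978 in TN, against at least 0.988 elsewhere). A bulk array cannot tell fewer cells with a transcript from less of it per cell.

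Most of the 32 genes were higher after 18 h of stimulation than at 0 h in both cell types. No group was kept for 18 h without stimulation, so its part cannot be told apart from that of time in culture. A gene was called where limma's moderated test, fitted on all 30 arrays with 1 mean per group, gave a Benjamini-Hochberg adjusted p under 0.05 over all 19938 genes. In every group 31 or 32 of the 32 members lay above the median level of all genes. The shares of all genes given beside member counts, here and below, are therefore not matched for level, and matched shares were not computed. In TMem cells, 28 of 32 members were higher at 18 h than at 0 h and 2 were lower (87.5% and 6.25%), where 18% of all genes were called higher and 17.3% lower. In TN cells, 22 were higher and 6 were lower (68.8% and 18.8%), where 17.1% and 16.7% of all genes were; these TN groups also differ in Eif2s3y, whose part was not tested. The median log2 difference of the members was 0.68 in TMem and 0.47 in TN cells, and that of all genes was -0.09 in TMem and -0.02 in TN cells. Leaving out any single 0 h array gave 28 to 30 calls in TMem cells, against 30 with all arrays, and 25 to 30 in TN cells, against 28. With each array centred on its median, 20 members were higher and 10 lower in TN cells. Centring moved every gene by -0.14 on the log2 scale in this TN comparison, by -0.11 in TN alone at 96 h against 0 h and by -0.12 in TMem against TN cells at 0 h.

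Both HSP70-type chaperones rose. Hspa5, which encodes BiP, read 11.74, 11.66 and 11.80 in TMem alone at 18 h, against 10.67, 10.52 and 10.78 in TMem alone at 0 h. In TN alone it read 11.51, 11.37 and 11.25 at 18 h, against 10.31, 10.60 and 10.56 at 0 h. The groups did not overlap in either cell type, and the differences were 1.08 ± 0.08 in TMem (SE, n = 3 each, limma adjusted p = 3.02e-11) and 0.89 ± 0.08 in TN cells (adjusted p = 1.62e-09). Hyou1, the partner that exchanges the nucleotide of BiP, rose further. It read 11.14, 11.06 and 11.11 in TMem alone at 18 h, against 9.54, 9.16 and 9.14 at 0 h, a 3.55-fold difference (limma adjusted p = 1.90e-14). In TN alone it read 10.30, 10.35 and 10.28 at 18 h, against 8.39, 8.81 and 8.74 at 0 h, 3.17-fold (limma adjusted p = 1.33e-13). Hsp90b1, the ER form of HSP90 that matures integrins and Toll-like receptors, rose by 0.72 in TMem and 0.78 in TN cells. The J protein Dnajb11, also called ERdj3, which hands chains to BiP, rose by 1.02 in TMem and by 0.53 in TN cells, and the secreted Manf by 1.01 and 0.37.

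**Figure D1:**
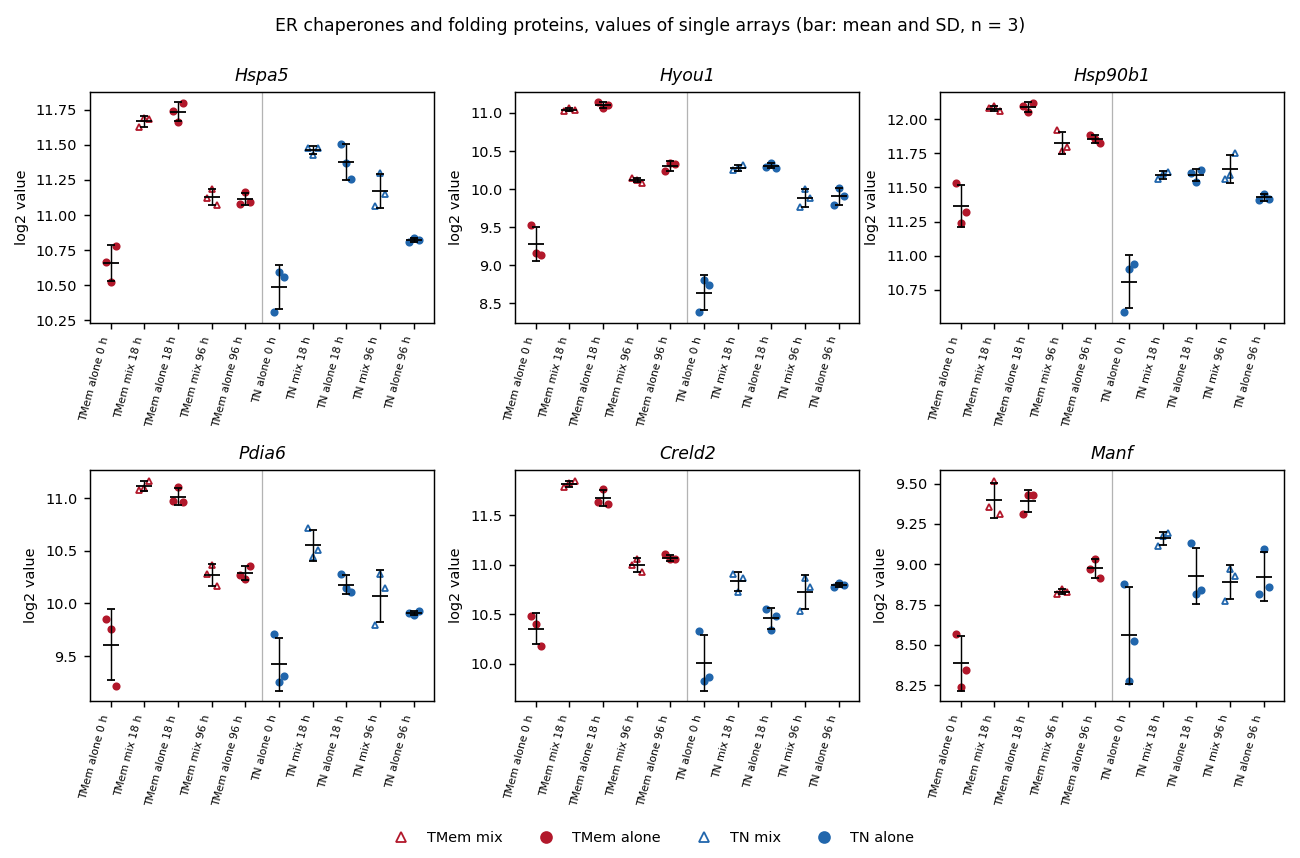
Log2 values (vertical axis) of 6 folding genes in each array, with the 10 groups along the horizontal axis and the bar giving mean and SD of 3 arrays. In each panel the 18 h arrays lie above the 0 h arrays of the same cell type on average, and for Hspa5 the TMem alone arrays are at 11.66 to 11.80 at 18 h, against 10.52 to 10.78 at 0 h.

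All 6 genes of disulfide bond formation rose in both cell types, beside 18% of all genes in TMem and 17.1% in TN cells. Pdia6, a disulfide isomerase that binds BiP, rose by 1.40 in TMem and by 0.75 in TN cells. Creld2, a secreted ER stress protein with isomerase activity, read 11.63, 11.77 and 11.62 in TMem alone at 18 h, against 10.48, 10.40 and 10.18 at 0 h. In TN alone it read 10.55, 10.34 and 10.48 at 18 h, against 10.33, 9.83 and 9.86 at 0 h, so its 18 h arrays lay above the 0 h arrays by a narrow gap there. Ero1l, now named Ero1a, encodes the oxidase that recharges the isomerases, and rose by 1.14 in TMem and by 0.73 in TN cells. P4hb and Pdia3 rose by 0.69 and 0.59 in TMem, and by 0.53 and 0.40 in TN cells. Pdia4 has a second array row that does not follow the one used: the row used rose by 0.83 in TMem and by 0.47 in TN cells, and the second row gave 0.28 in TMem (not called) and 1.75 in TN cells. The phosphatase subunit gene Ppp1r15b has such a row too. In TN alone its row used gave 0.54 at 18 h and 0.38 at 96 h against 0 h. The second row gave -0.24 and -0.28, and all of these were called. The lectin chaperone Calr rose by 0.68 in TMem and by 0.69 in TN cells, and Canx by 0.23 and 0.48.

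Of the 7 degradation genes, 6 rose and 1 fell in TMem cells, where 18% of all genes were called higher and 17.3% lower. In TN cells 3 rose and 2 fell, where 17.1% and 16.7% of all genes were called, and 7 genes are too few to read this as a trait of the role. Derl1 is counted in both cell types, and both its calls were lost under several alternatives, as given below. Sel1l and Syvn1 form the core of the ubiquitin ligase that takes chains out of the ER, and both rose: Sel1l by 0.68 in TMem and 0.57 in TN cells, and Syvn1 by 0.57 and 0.95. Edem1 fell by 0.38 in TMem cells and was not called in TN cells (-0.14). Wfs1, an ER membrane protein lost in Wolfram syndrome, rose by 0.47 in TMem and by 0.36 in TN cells.

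The sensors and the transcription factor did not move as a block. Atf6 rose by 0.85 ± 0.15 in TMem (limma adjusted p = 3.75e-05) and by 1.74 ± 0.15 in TN cells (limma adjusted p = 2.57e-10), and Ern1 by 0.53 in TMem and 0.58 in TN cells. Eif2ak3, which encodes PERK, fell in TMem cells: it read 8.18, 8.11 and 8.36 at 18 h, against 9.53, 9.23 and 8.89 at 0 h. In TN cells its arrays overlapped, with 7.82, 7.95 and 8.10 at 18 h, against 7.98, 8.38 and 8.40 at 0 h (limma adjusted p = 0.0533). Xbp1 rose by 0.75 in TN cells and was not called in TMem cells, where it read 10.65, 10.73 and 10.72 at 18 h, against 10.47, 10.39 and 10.67 at 0 h (limma adjusted p = 0.134).

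Some members moved in opposite called directions at 18 h, higher in TMem and lower in TN cells: Dnajb9, Dnajc3, Ppp1r15a, Herpud1 and Derl1, or 5 of 32, where 1.7% of all genes did so. Dnajb9, a J protein that restrains IRE1, read 10.06, 10.10 and 10.12 in TMem alone at 18 h, against 8.62, 8.18 and 8.99 at 0 h. In TN alone it read 10.19, 10.17 and 10.31 at 18 h, against 10.46, 10.73 and 10.58 at 0 h. The cell types differed by -0.13 at 18 h (TMem minus TN, not called) and by -2.0 at 0 h. The fall in TN cells (-0.37, limma adjusted p = 0.0393) lost its call without TN alone replicate 1 or 2 at 18 h or replicate 2 or 3 at 0 h, with adjusted p up to 0.151 over all alternatives. Ppp1r15a encodes GADD34, the inducible subunit that guides a phosphatase to eIF2alpha and so restores translation. It read 8.0, 7.98 and 8.07 in TMem alone at 18 h, against 6.79, 6.76 and 6.69 at 0 h, and in TN alone 8.15, 8.04 and 8.14 at 18 h, against 8.65, 8.83 and 8.99 at 0 h. Again the cell types met at 18 h from opposite sides. Herpud1, a scaffold of the degradation complex whose upstream bases are printed above, rose by 0.42 in TMem and fell by 0.69 in TN cells. Dnajc3, a J protein first described as an inhibitor of eIF2alpha kinases, rose by 0.64 in TMem and fell by 0.33 in TN cells. Derl1, a channel component for chains leaving the ER, rose by 0.21 in TMem and fell by 0.23 in TN cells, and both calls were lost under several alternatives (limma adjusted p up to 0.332 in TMem and 0.102 in TN cells).

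The difference between the cell types was tested itself, as the 18 h response of TMem minus that of TN cells. The TN response in it compares groups that differ in Eif2s3y, whose part was not tested. The difference was called above 0 for 13 members and below 0 for 5 (40.6% and 15.6%), where 14.2% of all genes were called above and 14.7% below. The largest were 1.99 ± 0.12 for Ppp1r15a (SE, limma adjusted p = 8.36e-13), 1.91 for Sec24d, 1.87 for Dnajb9, 1.33 for Derl3 and 1.11 for Herpud1. Below 0 were Atf6 (-0.89), Eif2ak3 (-0.70), Sdf2l1 (-0.67), Xbp1 (-0.56) and Syvn1 (-0.38). The Pdia4 difference of 0.36 was reversed when the mean of its rows was taken. Sec24d, a subunit of the COPII coat that selects cargo leaving the ER, read 9.44, 9.37 and 9.52 in TMem alone at 18 h, against 7.99, 7.76 and 7.46 at 0 h. In TN alone it stayed low, with 6.76, 6.71 and 6.88 at 18 h, against 6.69, 7.19 and 7.07 at 0 h. Derl3, the derlin known for its induction by XBP1, read 8.89, 9.0 and 9.26 in TMem alone at 18 h, against 7.09, 7.51 and 7.25 at 0 h. In TN alone it read 7.69, 7.83 and 7.66 at 18 h, against 7.28, 7.29 and 7.28 at 0 h, a smaller rise of 0.44.

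**Figure D2:**
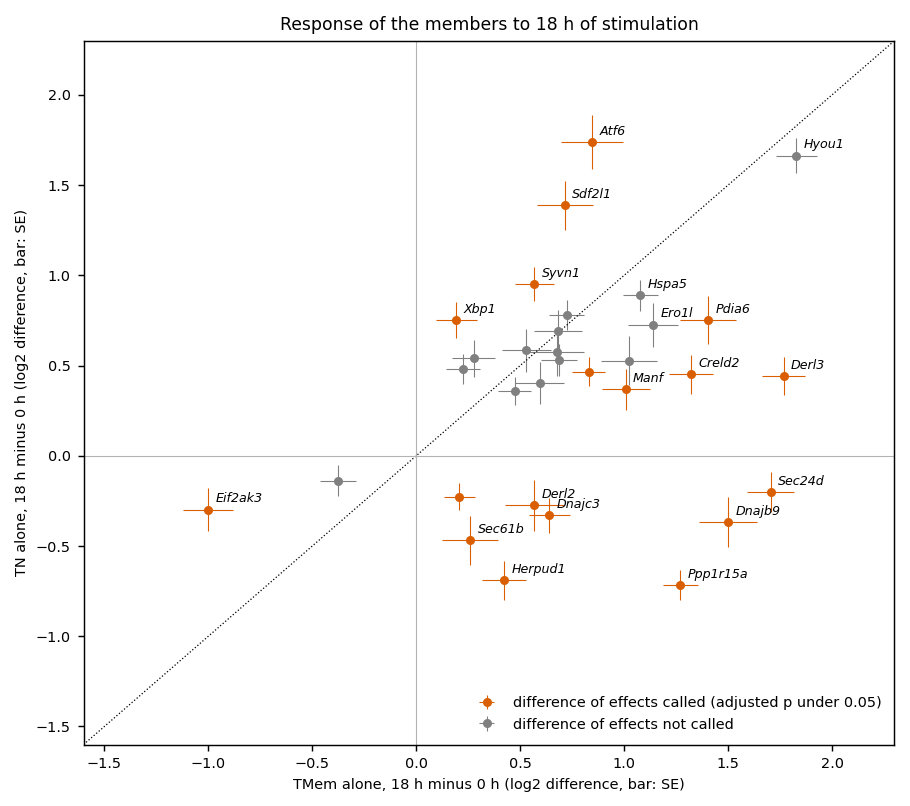
Log2 difference between 18 h and 0 h in TMem alone (horizontal axis) and in TN alone (vertical axis) for the 32 members, with bars of 1 SE and a dotted line of equal response; orange points are those whose difference of responses was called. Dnajb9, Ppp1r15a and Herpud1 lie to the right of 0 and below 0 (1.27 in TMem and -0.71 in TN cells for Ppp1r15a), and Hyou1 lies near the line at 1.83 and 1.66.

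After 96 h most members were still called above their 0 h levels. In TMem alone, 24 of 32 members were higher at 96 h than at 0 h and 0 were lower (limma; 25 were higher and 0 lower at an unadjusted p under 0.05), where 16.1% of all genes were called higher and 8.44% lower. In TN alone, 24 were higher and 4 lower, where 18.6% and 17.9% of all genes were, and centring each array on its median gave 20 and 7. These comparisons share their 0 h arrays with those at 18 h. From 18 h to 96 h, 2 members rose and 13 fell in TMem alone (40.6% lower), where 14.6% of all genes were called higher and 9.87% lower. In TN alone 8 rose and 6 fell over the same time, where 11.3% and 13.1% were called, so the share of fallers (18.8%) was near that of all genes.

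The 2 members that rose between 18 h and 96 h in TMem cells were Eif2ak3 and Edem1. Eif2ak3 read 9.53, 9.23 and 8.89 at 0 h, 8.18, 8.11 and 8.36 at 18 h and 9.82, 9.77 and 9.86 at 96 h in TMem alone. Its level at 96 h was 3.03-fold that at 18 h (limma adjusted p = 1.88e-11), so it ran against the chaperones at both steps. Edem1, which marks misfolded glycoproteins for degradation, rose by 0.29. Derl3 read 7.25, 7.46 and 7.44 at 96 h in TMem alone, back among its 0 h values (limma adjusted p = 0.541 against 0 h). Hspa5, at 11.08, 11.16 and 11.10, lay between its 0 h and 18 h values.

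In TN cells, Xbp1 and Sdf2l1 kept rising to 96 h. Xbp1 read 9.84, 9.36 and 9.67 at 0 h, 10.27, 10.50 and 10.36 at 18 h and 11.31, 11.45 and 11.34 at 96 h in TN alone, without overlap between the times. Sdf2l1, a partner of the J protein ERdj3, read 8.67, 8.66 and 8.42 at 0 h, 10.02, 10.03 and 9.86 at 18 h and 10.42, 10.73 and 10.72 at 96 h. Markers of other cells were higher in the later of these TN alone arrays too, and their part was not tested. At 96 h the 4 MHC class II genes averaged 9.11 to 9.26, against 6.85 to 6.91 at 18 h, and the 7 measured of 8 myeloid genes 6.88 to 6.89, against 6.2 to 6.35. The 4 mast cell and basophil genes averaged 6.40 to 6.75 at 96 h, against 5.19 to 5.27 at 18 h. In TMem alone Xbp1 rose by 0.42 and Sdf2l1 by 0.79 between 0 h and 96 h, against 1.74 and 2.04 in TN alone. Ppp1r15a fell in TN alone to 6.75, 6.76 and 6.75 at 96 h, 4.21-fold below 0 h (limma adjusted p = 1.47e-17), and Dnajb9 fell by 1.84. The 96 h response of TMem minus that of TN cells was called above 0 for 7 members and below 0 for 3, where 16.5% and 13.2% of all genes were, so the count above 0 (21.9%) was near the background. Quantile normalization gave 7 above and 6 below 0. It was 2.85 for Ppp1r15a, 2.40 for Dnajb9 and 0.91 for Herpud1, and -1.32 for Xbp1, -1.25 for Sdf2l1 and -0.53 for Edem1.

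**Figure D3:**
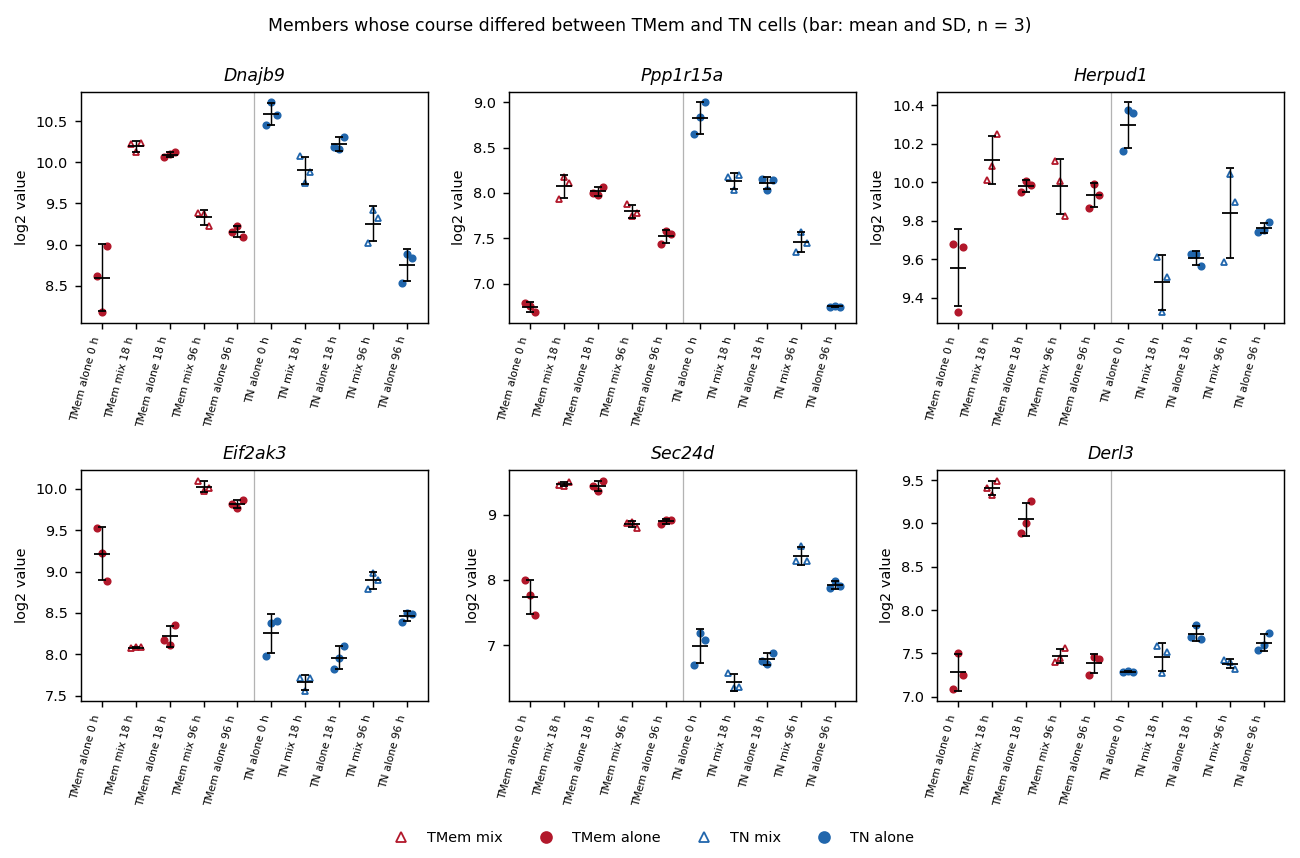
Log2 values (vertical axis) of 6 members whose course differed between TMem and TN cells, by array, with the 10 groups along the horizontal axis and bars of mean and SD of 3 arrays. Ppp1r15a starts at 6.69 to 6.79 in TMem alone and at 8.65 to 8.99 in TN alone at 0 h, and the cell types lie side by side at 18 h.

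Before stimulation 16 members already had more transcript in TMem than in TN cells. At 0 h, 16 of 32 were higher in TMem and 6 lower (50% and 18.8%), where 18.4% of all genes were called higher and 17.5% lower, so only the higher calls stood above the background. The largest were Atf6 (1.55), Sdf2l1 (1.26), Eif2ak3 (0.96), Xbp1 (0.88), Ero1l (0.78) and Sec24d (0.75). Lower in TMem were Ppp1r15a (-2.08), Dnajb9 (-2.0), Herpud1 (-0.74), Dnajc3 (-0.45), Sec61b (-0.43), a subunit of the translocation channel, and Derl2 (-0.38). The count of 22 calls fell to 16 without TN alone replicate 1 and to 17 without TMem alone replicate 1, and to 13 in a fit of these 2 groups alone. With each array centred on its median, 9 were higher and 7 lower. For Ppp1r15b the row used gave 0.27 and its second row -0.26. Hspa5 was not called at 0 h (10.67, 10.52 and 10.78 in TMem, against 10.31, 10.60 and 10.56 in TN cells, limma adjusted p = 0.131). Markers of other cells moved with this comparison and with that of TMem alone at 18 h and 0 h. The 3 measured of 5 erythroid and platelet genes averaged 7.30 to 7.56 in TMem alone arrays at 0 h, against 6.23 to 6.52 in TN alone at 0 h. The 4 mast cell and basophil genes averaged 6.32 to 7.16 in TMem alone at 0 h, against 5.45 to 5.78 in TN alone at 0 h. In TMem alone at 18 h these lists averaged 5.92 to 6.01 and 5.27 to 5.31, both below the TMem 0 h arrays. Their part in these results was not tested, nor was that of the Eif2s3y and Xist differences between the cell types.

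At 18 h most members were higher in TMem cells. The cell types also differed in Eif2s3y and Xist, and the part of this was not tested. Between the alone groups 24 of 32 were higher and 0 lower (75%; 27 and 0 at an unadjusted p under 0.05), where limma called 15.4% of all genes higher and 13.5% lower. Between the mix groups 19 were higher and 0 lower (59.4%; 24 and 0 unadjusted), where 11.8% and 8.64% were called. Sec24d differed most: it read 9.45, 9.44 and 9.50 in TMem mix, against 6.58, 6.35 and 6.36 in TN mix, a difference of 3.04 ± 0.11 (SE, limma adjusted p = 4.73e-18). Derl3 read 9.41, 9.32 and 9.49 in TMem mix, against 7.58, 7.27 and 7.52 in TN mix. Creld2 was higher by 1.22 in the alone groups and by 0.99 in the mix groups, and Hyou1 by 0.80 and 0.77. All 6 genes of disulfide bond formation and both HSP70-type genes were higher in TMem alone than in TN alone, but for Pdia4 (0.49 on the row used) the second row gave -0.36 and the mean of the rows 0.06, neither called. Hspa5 was higher by 0.36 in the alone groups and was not called in the mix groups (0.21, limma adjusted p = 0.0889). Calr did not pass the test in either (0.25 and 0.13). The phosphatase subunits Ppp1r15a and Ppp1r15b were not called either, at -0.09 and 0.00 in the alone groups.

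At 96 h fewer members were called between the cell types, and the change since 18 h was not tested. Nor was the part of the Eif2s3y and Xist differences between the cell types. Between the alone groups 14 members were higher in TMem and 1, Xbp1, was lower (-0.44), where 14.1% of all genes were called higher and 8.02% lower, and quantile normalization gave 10 and 3. Between the mix groups 5 were higher and 0 lower (limma; 9 higher and 1 lower at an unadjusted p under 0.05), where 6.68% and 3.94% of all genes were called, and quantile normalization gave 5 and 1. The alone groups lay further apart at 96 h than at 18 h for Atf6 (1.62 and 0.66), Eif2ak3 (1.36 and 0.26), Ero1l (1.62 and 1.19) and Ppp1r15a (0.77 and -0.09). The 5 called between the mix groups were Eif2ak3 (1.13), Ero1l (0.88), Ern1 (0.53), Sec24d (0.49) and Ppp1r15a (0.34). Eif2ak3 read 10.10, 9.97 and 10.01 in TMem mix, against 8.79, 8.99 and 8.90 in TN mix. Atf6 differed by 1.62 between the alone groups at 96 h and by 0.17 between the mix groups (limma adjusted p = 0.517 in the mix groups).

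Few members were called between mixed and unmixed TN cells at 18 h. In TN mix against TN alone at 18 h, 2 members were higher, Ero1l (0.58) and Creld2 (0.37), and 2 were lower, Sec24d (-0.35) and Syvn1 (-0.30). Limma called 6.3% of all genes higher and 8.15% lower there, so 6.25% of members in each direction is no more than the background. Ero1l alone of the 4 kept its call in every alternative tried. The calls of Creld2, Sec24d and Syvn1 were all lost without TN alone replicate 2 or without TN mix replicate 3, where 1 call was left, and those of Creld2 and Syvn1 without TN mix replicate 1, where 2 were left. With each array centred on its median, 3 members were higher and 0 lower (limma). The 121 other measured genes of the pathway differed more often than the members. Of these, 23 were called higher and 9 lower in TN mix at 18 h (19% and 7.44%), beside 6.3% and 8.15% of all genes.

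At 96 h more members differed, and most were higher in the mixed culture. Mixed TN cells exceeded unmixed ones at 96 h in 10 of 32 members and fell short of them in 2 (31.2% and 6.25%), where 7% of all genes were called higher and 3.62% lower. The higher ones were Atf6, Ero1l, Ppp1r15a, Dnajb9, Sec24d, Eif2ak3, Hspa5, Ppp1r15b, Derl1 and Canx, and the lower ones were Ern1 and Xbp1. Without TN mix replicate 2 only 5 calls were left and without TN alone replicate 1 there were 7, and quantile normalization gave 9 higher and 4 lower. Atf6, Ero1l, Ppp1r15a, Ern1 and Xbp1 kept their calls without any single array of these groups.

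Atf6 read 9.33, 9.51 and 9.37 in TN mix at 96 h, against 7.72, 7.84 and 7.93 in TN alone at 96 h, a 2.97-fold difference (1.57 ± 0.15, limma adjusted p = 1.66e-08). At 18 h it read 9.14, 9.16 and 9.13 in TN mix, against 9.04, 9.12 and 9.12 in TN alone, so no such gap was seen then. At 0 h it read 9.38, 9.07 and 8.28 in TMem alone, against 7.13, 7.45 and 7.48 in TN alone. Over the TN groups Atf6 was low where Eif2s3y was low (TN alone at 0 h and 96 h) and high where Eif2s3y was high, and TMem arrays were high in both. Its rise between 0 h and 96 h within TN alone, where Eif2s3y was alike, was 0.47, against 1.74 between 0 h and 18 h, where it was not. The 0.47 lost its call without TN alone replicate 1 at 0 h (limma adjusted p = 0.0924). The part of whatever sets Eif2s3y in the Atf6 differences was not tested. In TMem alone the 96 h rise of Atf6 (0.54) fell to 0.22 and lost its call without replicate 3 at 0 h (limma adjusted p = 0.108).

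**Figure D4:**
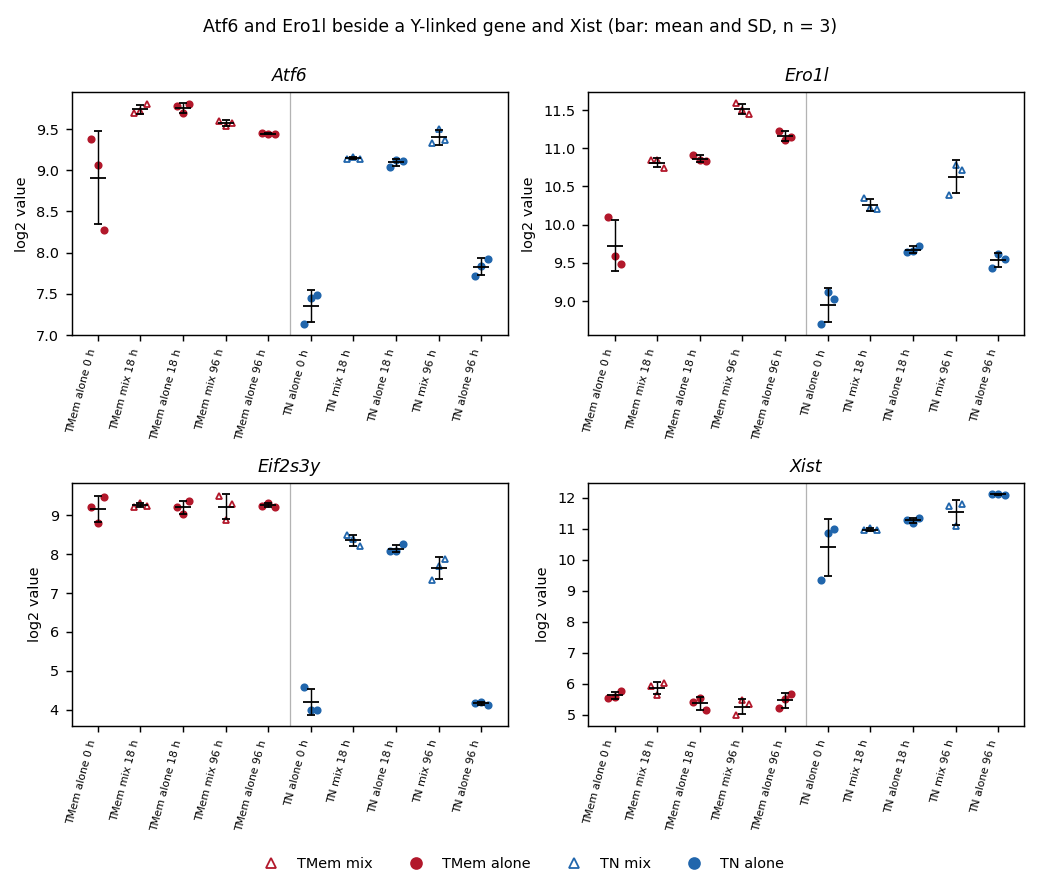
Log2 values (vertical axis) of Atf6, Ero1l, the Y-linked gene Eif2s3y and Xist by array, with the 10 groups along the horizontal axis and bars of mean and SD of 3 arrays. TN alone at 0 h and 96 h is low for Atf6 (7.13 to 7.93) and for Eif2s3y (4.0 to 4.58), and the other 3 TN groups are high for both.

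Ero1l read 10.38, 10.78 and 10.72 in TN mix at 96 h, against 9.44, 9.62 and 9.55 in TN alone (1.09 ± 0.12, limma adjusted p = 2.60e-07), and no array overlapped. Ppp1r15a read 7.35, 7.57 and 7.45 in TN mix, against 6.75, 6.76 and 6.75 in TN alone (0.71 ± 0.08, limma adjusted p = 9.19e-07). Hspa5 read 11.06, 11.30 and 11.15 in TN mix, against 10.81, 10.84 and 10.82 in TN alone, a smaller gap of 0.35. Ern1 went the other way, at 7.52, 7.67 and 7.51 in TN mix, against 8.13, 8.11 and 8.21 in TN alone (-0.58 ± 0.12, limma adjusted p = 0.00108). Xbp1, whose mRNA the product of Ern1 splices, was lower as well, at 10.96, 11.05 and 10.84 in TN mix, against 11.31, 11.45 and 11.34 in TN alone (-0.42 ± 0.10). The groups of all 5 genes did not overlap. MHC class II and myeloid genes differed between the same groups (Cd74 at 8.13 in TN mix and 9.96 in TN alone, H2-Aa at 6.62 and 9.46, Lyz2 at 5.47 and 8.26), and their part in these results was not tested. The plasma cell marker Jchain averaged 5.17 in TN mix and 4.90 in TN alone. All 5 measured plasma cell genes together averaged 6.95 to 7.07 in TN mix arrays and 6.71 to 6.79 in TN alone arrays.

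The effect of mixing on TN cells at 96 h minus that at 18 h was called above 0 for 6 members and below 0 for 0 (limma; 9 and 3 at an unadjusted p under 0.05), where 8.16% of all genes were called above and 4.26% below. The 6 were Atf6 (1.52), Dnajb9 (0.82), Sec24d (0.80), Eif2ak3 (0.73), Ppp1r15a (0.68) and Ero1l (0.51, adjusted p = 0.0493). The call of Ero1l was lost under 12 alternatives, the replicate block among them, and quantile normalization gave 6 above and 3 below 0. TN mix and TN alone differ in Eif2s3y at 96 h but are alike in it at 18 h. At 96 h they also differ in MHC class II and myeloid genes. Mixing cannot be told apart from these differences here, and their part was not tested.

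In TMem cells no member was called between mix and alone. Limma called 0 of 32 members in either direction at 18 h, where 0% of all genes were called higher and 0.0301% lower, and at an unadjusted p under 0.05 there were 2, Dnajc3 (0.20) and Derl3 (0.36). At 96 h it called 0 members again, where 0.968% were called higher and 0.15% lower, and 2 passed unadjusted, Ppp1r15a (0.27) and Ero1l (0.35). For Hspa5 the 95% interval of the difference ran from -0.24 to 0.11 at 18 h and from -0.16 to 0.19 at 96 h. For Atf6 at 96 h it ran from -0.18 to 0.43. The effect of mixing at 96 h in TN cells minus that in TMem cells was called above 0 for 3 members, Atf6 (1.45), Ero1l (0.74) and Ppp1r15a (0.43), where 1.92% of all genes were called above and 1.62% below 0. No member was called below 0 (limma, with 8 above and 3 below at an unadjusted p under 0.05), and quantile normalization gave 3 above and 2 below. The TN part of this difference compares groups that differ in Eif2s3y and in MHC class II and myeloid genes, whose part was not tested.

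Over all 10 groups the members did not share 1 course, and role did not sort them cleanly. The correlation of group means with those of Hspa5 was at least 0.8 for 12 of the 31 other members and at least 0.9 for 6: Hyou1, Dnajb11, P4hb, Pdia6, Calr and Manf, a secreted ER stress protein. The degradation genes Syvn1 (0.87) and Sel1l (0.82) were among the 12, whereas the J proteins Dnajb9 (0.38) and Dnajc3 (0.50) and the oxidase gene Ero1l (0.59) were not. It was below 0 for Eif2ak3 (-0.35), Edem1 (-0.54), Herpud1 (-0.09) and Sec61b (-0.04). These correlations describe 10 group means from 1 array platform, and the groups share cell sources and times. TN alone at 0 h was the lowest group for 20 of 32 members, and a TMem 18 h group was the highest for 21. Dnajb9, Ppp1r15a, Herpud1 and Sec61b, or 4 of 32, were highest in TN alone at 0 h. The ranges of group means ran from 0.47 for Sec61b to 3.04 for Sec24d on the log2 scale.

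**Figure D5:**
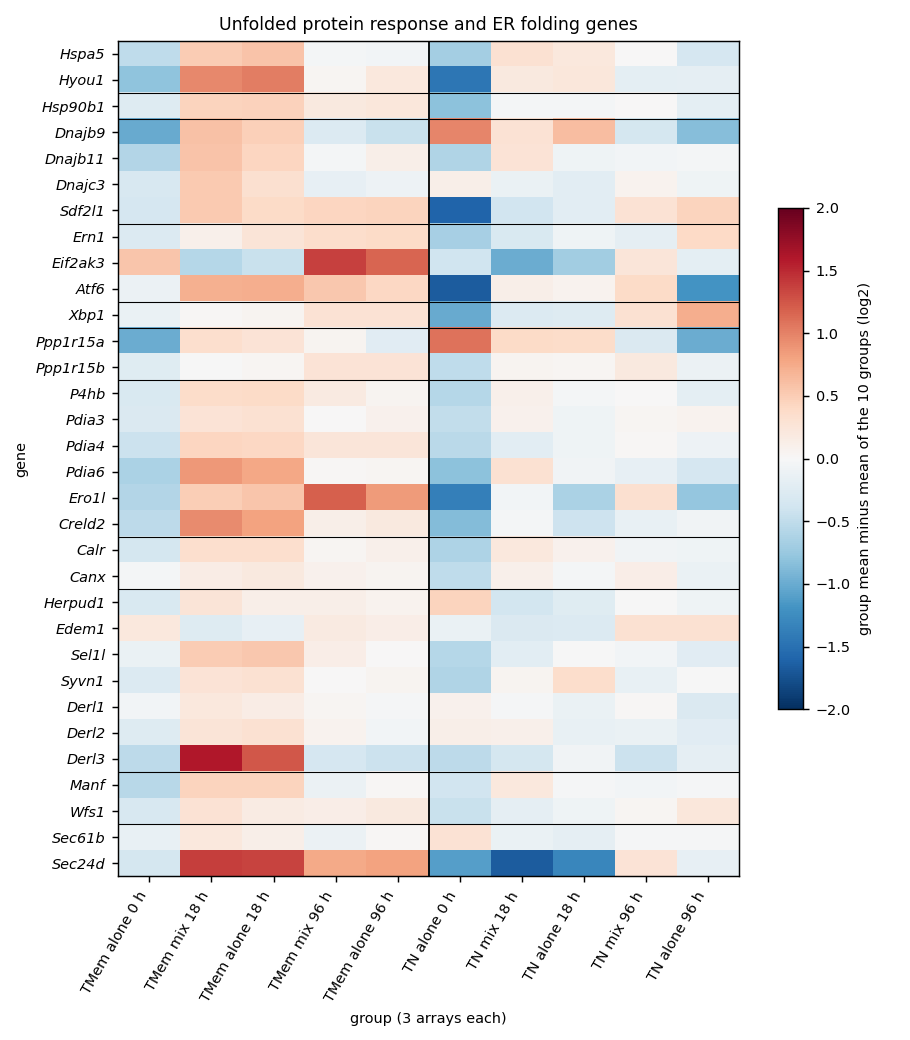
Group mean minus the mean of the 10 groups (log2, colour scale from -2 to 2) for the 32 members, in rows grouped by role, and the 10 groups in columns with TMem left of TN. The TN alone 0 h column is blue for most rows and red for Dnajb9 and Ppp1r15a, and the TMem 18 h columns are red for most rows.

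Carriers of an ERSE are set beside the other members with a window here, as a description with no test. In TMem alone, 9 of the 9 genes with the element and 14 of the 18 with a window but no element were higher at 18 h than at 0 h, with medians of 0.72 and 0.63. In TN alone 8 of 9 and 10 of 18 were higher, with medians of 0.69 and 0.38, and Dnajc3 was the 1 carrier that fell. From 18 h to 96 h in TMem alone 6 of 9 carriers and 5 of 18 others fell, with medians of -0.41 and -0.13. Of all genes, 18% were called higher at 18 h than at 0 h in TMem alone and 17.1% in TN alone. From 18 h to 96 h in TMem alone, 9.87% of all genes were called lower. Herpud1, with ERSE-II and the ATF4-type element, was higher at 18 h in TMem and lower in TN cells, as given above. Dnajb11, the other member with ERSE-II, was higher in both cell types.

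The wider pathway, 121 measured genes of translocation, glycosylation, other folding enzymes, degradation, coats and the ATF4 branch, was called higher more often in TMem than in TN cells at 18 h, which was not tested over the list. In TMem alone 74 of 121 were higher at 18 h than at 0 h and 6 lower, with a median of 0.37, beside 18% and 17.3% of all genes. In TN alone 36 were higher and 31 lower, with a median of -0.01, beside 17.1% and 16.7% of all genes. The members, unlike this list, had a median of 0.47 in TN alone. Kdelr3, a receptor that returns escaped ER proteins, averaged 7.75 ± 0.24 in TMem alone at 18 h and 5.68 ± 0.09 in TN alone at 18 h (SD, n = 3 each), 2.07 higher on the log2 scale. Its TN mean lay below the lower quartile of those arrays (5.74 on average), so it was near background there. Pdia5, another disulfide isomerase, was 2.02 higher in TMem alone than in TN alone at 18 h, and Lman1, a cargo receptor for glycoproteins, 1.41 higher. Among 17 glycosylation genes, 14 were higher and 0 lower at 18 h than at 0 h in TMem cells, and 11 were higher and 1 lower in TN cells (limma). Crebrf, a factor described as limiting the unfolded protein response, was lower at 18 h than at 0 h by 1.77 in TMem and by 0.55 in TN cells.

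The ATF4 branch is driven by PERK and other eIF2alpha kinases. Of its 8 measured genes, 5 were higher and 0 lower in mixed than in unmixed TN cells at 96 h (limma), among 22 higher and 1 lower of the 121 genes. Of all genes, 7% were called higher there and 3.62% lower. These groups also differ in Eif2s3y and in MHC class II and myeloid genes, whose part was not tested. Atf3, a stress-induced transcription factor, averaged 8.97 ± 0.07 in TN mix and 7.36 ± 0.06 in TN alone (SD, n = 3 each). Chac1, an enzyme that degrades glutathione, averaged 8.85 ± 0.14 in TN mix and 7.69 ± 0.14 in TN alone, and Trib3, Ddit3 and Atf4, picked after their values were seen, were higher by 0.69, 0.62 and 0.51. In TMem cells Atf3, Chac1 and Trib3 were not called between mix and alone at 96 h (0.24, -0.05 and -0.16), and the effect on TN minus that on TMem cells was 1.37 for Atf3, 1.21 for Chac1 and 0.85 for Trib3 (limma adjusted p = 0.000141, 9.37e-05 and 0.000455). Crebrf, another of the 8 genes, went the other way. It was higher by 0.69 in TMem mix than in TMem alone at 96 h (limma adjusted p = 0.00492). Its effect on TN minus that on TMem cells was -0.84 (limma adjusted p = 0.00811).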

How the data were processed

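Per the labels, RNA of sorted cells was amplified with a whole transcriptome kit, biotin-labelled and read on Affymetrix mouse gene arrays. Values in the deposited table are log2 levels per probe set; the submitters' processing notes name RMA and Partek, without version, role or settings. The values, 2.05 to 14.2, were used as deposited. Of 35556 rows, 21789 had 1 gene symbol in the platform table, 1621 had several and 12146 were not listed; of several rows of a gene the one with the highest mean was used, which left 19938 genes. Symbols were updated by gene ID (21698 rows matched RefSeq).

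Limma 3.58.1 in R 4.3.3 fitted 1 mean per group to all 30 arrays (20 residual degrees of freedom). Contrasts were tested with Benjamini-Hochberg adjustment over all genes, at 0.05, and the procedure was tested on simulated data. Group means of all members lay above the arrays' lower quartile. Depth does not apply to arrays: the 3 arrays per group limit the precision. The genes named were the 32 members and, of 129 listed pathway genes (121 measured), the 3 with the largest called change each way per comparison and genes of the ATF4 branch chosen after their values were seen. The members and lists were chosen with earlier results of these data known.

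Same-numbered repeats were checked for pairing by correlating their deviations from group means. Every pair exceeded 0.1 in 1 of 15 comparisons, TN mix against TN alone at 96 h (0.14 to 0.49); this hint comes from the data, and the labels give no shared animal. Alternatives were array centring, quantile normalization, array weights, a trended robust fit, a filter on dim genes, the mean of a gene's rows, only the compared groups, a replicate block and leaving out each array. Motif letters were searched in RefSeq promoter windows.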

Additional observations from a re-analysis of the deposited data

Results flagged for a closer look

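The following members differed between TMem and TN cells, or between mixing effects, by more than 1 on the log2 scale in a test of the difference itself (limma, adjusted over all genes). For the response to 18 h of stimulation, TMem minus TN, the differences were 1.99 for Ppp1r15a, 1.91 for Sec24d, 1.87 for Dnajb9, 1.33 for Derl3 and 1.11 for Herpud1. For Ppp1r15a, Dnajb9 and Herpud1 the cell types differed mainly at 0 h, where TMem cells were lower by 2.08, 2.00 and 0.74 on the log2 scale. For Sec24d and Derl3 they differed mainly at 18 h, where TMem cells were higher by 2.66 and 1.32.

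For the response to 96 h, TMem minus TN, the differences were 2.85 for Ppp1r15a, 2.40 for Dnajb9, -1.25 for Sdf2l1 and -1.32 for Xbp1. The effect of mixing on Atf6 in TN cells was 1.52 larger at 96 h than at 18 h, and at 96 h it was 1.45 larger in TN than in TMem cells. Atf6 and the Y-linked Eif2s3y were low in the same TN groups, as given with the values above, and this was not tested further.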

How the results depend on the processing

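Of 9696 member values recomputed under an alternative, 9151 kept direction and call, 261 lost a call, 282 gained one and 2 reversed: with the mean of its rows, Pdia4 gave -0.56 for the 18 h and -0.40 for the 96 h response of TMem minus TN cells. Counts of called members moved by over 1.5 times as follows. With array weights there were 26 calls for TMem alone 96 h against 18 h (15 otherwise), 11 for TMem mix against TN mix at 96 h (5), 9 for TN mix against alone at 18 h (4), 19 for the same at 96 h (12) and 2 for TMem mix against alone at 96 h (0). Weights also gave 18 for the difference of the 96 h responses (10), 15 for the mixing effect in TN cells at 96 h minus 18 h (6) and 14 for the mixing effect at 96 h in TN minus TMem cells (3). A fit of only the compared groups gave 23 for TMem alone 96 h against 18 h, 13 for TMem against TN at 0 h (22), 1 for TMem mix against alone at 96 h and 6 for the last difference, for which quantile normalization gave 5. A fit without the 0 h arrays, added after seeing the data, gave 9 for TMem mix against TN mix at 96 h, 8 for TN mix against alone at 18 h, 2 for TMem mix against alone at 96 h, 10 for the mixing effect in TN cells at 96 h minus 18 h and 7 for that in TN minus TMem cells; the cause was not tested. Leaving out 1 array gave 1 to 3 calls for TN mix against alone at 18 h and 5 to 14 at 96 h.

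The replicate block moved no count by over 1.5 times and cost 5 of 608 values their call; the block on the TN 96 h pairs, added after seeing the data, left 12 calls. Arrays give relative signal only, and 3 per group limit what can be called.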
